A study of Danio rerio with 6 samples.

Results

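Isolated open regions are stretches of accessible chromatin that lie far from any other on their chromosome. Overlapping peaks of all 6 ATAC-seq lists were merged into 85003 regions, and 50533 of these lay on chromosomes 1 to 25 with a peak in at least 3 lists, leaving out chromosome 4 from base 27000000 on. A region was called isolated when its gaps to both the previous and the next such region exceeded 75000 bases, and the first and the last region of each chromosome were dropped. This left 627 isolated regions, 1.24% of the 50533, and the remaining 49906 are called the other regions. The rule reads where peaks were called in these samples, so spacing and the number of lists with a peak describe the choice and are given with no test.

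The embryos were AB wild type zebrafish collected whole at 50% epiboly (5.5 hpf). The 3 Ezh2i samples were kept in 5 µM PF-06726304 acetate, an inhibitor of the H3K27 methyltransferase Ezh2, and the 3 Control samples in 0.05% DMSO. All were dechorionated and deyolked before tagmentation, and each exposure was carried out in triplicate wells. A sample pools many whole embryos, so a lower peak can come from fewer cells with the region open or from less openness in each cell, and these cannot be told apart.

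ATAC-seq reads open chromatin through the transposase Tn5, which inserts adapters where DNA is not wrapped in nucleosomes. Open sites far from their neighbours can be distal enhancers, insulators or promoters of lone genes, whereas sites in dense clusters are common around promoters and developmental genes with many enhancers. Polycomb repressive complex 2, of which Ezh2 is the catalytic subunit, trimethylates H3K27 at silenced developmental genes, a mark that is laid down broadly in the zebrafish embryo after the zygotic genome is switched on. An annotation of GRCz11, the build of all positions given here, was not used, so no gene, exon or start site is assigned to a region.

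For each sample the authors deposited peaks called on that sample alone. Height here is the pileup at the summit, that is, how many fragments overlap that base, and a region took its height in a sample from its tallest peak there. Between 5894731 and 6877909 fragments per library entered peak calling, and the lists held 48291 to 57178 peaks. Ezh2i sample 2 (49817 peaks) and Control sample 3 (48291 peaks) held the fewest, and these libraries stood apart from the rest at isolated regions as well, so results that rest on them are also given without both.

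Isolated regions were narrow and mostly low. Their length lay between 89 and 546 bases with a median of 177 bases, against 182 bases in the other regions. Averaged over the lists with a peak, height had a median of 11.6 fragments in isolated regions and 16.2 fragments in the other regions. A mean height under 15 fragments was found in 419 isolated regions, and 20 reached at least 50 fragments. Heights of at least 30 fragments were reached by 56 isolated regions (8.93%), against 23.2% of the other regions. At such low heights the value in a single list rests on few fragments.

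Of the isolated regions, 257 (41.0%) had a peak in all 6 lists, against 58.0% of the other regions. At the other end, 133 isolated regions (21.2%) had a peak in 3 lists, the fewest the rule admits, against 14.6% of the other regions. A further 107 had a peak in 4 lists and 130 in 5 lists. Presence went with height, with a median mean height of 9 fragments for isolated regions in 3 lists and 19.3 fragments for those in all 6. Other regions in all 6 lists had a median of 24.7 fragments. A simple structure was common to both sets, since 616 isolated regions (98.2%) held at most 1 peak per list, against 98.0% of the other regions.

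The nearer neighbour of an isolated region lay at a median distance of 93450 bases and the farther one at 142800 bases, whereas the median nearer gap over all 50533 regions was 5547 bases. The longest single gap, 498278 bases, lay before chr3:2664441-2664683. Values changed in steps along the spacing of all regions. Median mean height was 11.6 fragments where the nearer neighbour was over 75 kb away, 12.5 fragments at 25 to 75 kb, 13.4 fragments at 5 to 25 kb and 19.7 fragments under 5 kb. In the same order, 41.0%, 52.0%, 56.1% and 61.1% of regions had a peak in all 6 lists. The local background, the coverage that a peak's height is set against, had a median of 0.373, 0.389, 0.425 and 0.983 fragments in these classes. This background was taken from a window of 10000 bases around the peak, so a neighbour inside the window enters it by construction. It did not fall below a floor in each list, from 0.340 fragments in Control sample 1 to 0.385 fragments in Control sample 3. Many peaks at isolated regions lay at this floor, as given below, so the steps between classes are limited by it. An isolated region has no such neighbour among the regions that the rule counts, though a region with a peak in 1 or 2 lists can lie there. A peak's own fragments lie in the window too. At the tallest isolated region, chr10:5821582-5821879, background was 1.65 to 2.26 fragments over the samples. Since the classes also differ in height, background does not describe the surroundings alone. Region length showed no such order, with medians of 177, 184, 187 and 177 bases.

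**Figure D1:**
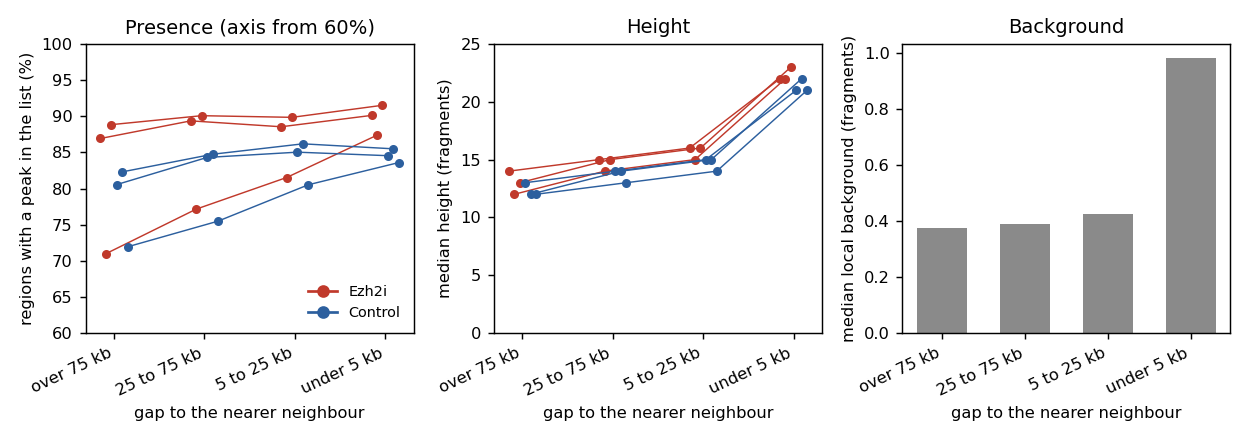
Presence, height and local background by distance to the nearer neighbouring region, for regions over 75 kb (isolated), 25 to 75 kb, 5 to 25 kb and under 5 kb from it. Lines show the share of regions with a peak in % (axis from 60%) and the median height in fragments for each Ezh2i (red) and Control (blue) sample, and bars the median background in fragments; Ezh2i sample 2 and Control sample 3 fall to 71.0% and 71.9% at isolated regions, while the other samples stay above 80%.

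Some isolated regions lay beside each other. An isolated region had another as its neighbour in 209 cases (33.3%), in 95 runs. The longest run held 5 isolated regions on chromosome 18, from base 39586472 to base 40040892, and spacing within it lay between 85407 and 149114 bases. Its member at chr18:39787703-39787934 had heights of 26, 23 and 27 fragments in Ezh2i samples 1, 2 and 3, against 28, 32 and 25 fragments in Control samples 1, 2 and 3. The next, chr18:39937049-39937225, had 18, 23 and 21 fragments in Ezh2i samples and 30, 26 and 18 fragments in Control samples. Both had a peak in every list with overlapping groups, while the remaining 3 members had a peak in 3, 4 and 5 lists and mean heights of 9.25 to 10.2 fragments.

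The stretches around isolated regions were sparse but seldom empty. A further 31414 regions on the same chromosomes had a peak in 1 or 2 lists and did not enter the rule. No such weak region was found within 75000 bases at 83 isolated regions (13.2%), against 2.53% of the other regions, and the median number was 2 at isolated regions and 4 at the other regions. Every chromosome held isolated regions. Their number lay between 10 on chromosome 23 and 34 on chromosomes 7 and 20, and their density between 2.16 per 10 Mb on chromosome 23 and 7.16 per 10 Mb on chromosome 22, against 4.85 per 10 Mb over all chromosomes.

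At the 257 isolated regions found in every list, summits were called within a narrow window, with a median range of 42 bases over the lists, against 40 bases in the other regions. At heights of at least 30 fragments the median range was 26.5 bases in 54 isolated regions and 32 bases in the other regions.

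Peaks at isolated regions were fewest in 1 library of each exposure. A peak was present at 545 (86.9%), 445 (71.0%) and 557 (88.8%) isolated regions in Ezh2i samples 1, 2 and 3, and at 505 (80.5%), 516 (82.3%) and 451 (71.9%) in Control samples 1, 2 and 3. At the other regions the shares were 89.4%, 83.8% and 90.7% in Ezh2i samples and 84.7%, 85.7% and 81.4% in Control samples. Ezh2i sample 2 and Control sample 3 were thus the lowest in both sets, and the distance between isolated and other regions was widest there, at -12.9 points in Ezh2i sample 2 and -9.50 points in Control sample 3, against -4.18 to -1.83 points in the other samples. Among the 130 isolated regions in 5 lists, the missing peak was that of Ezh2i sample 2 at 39 regions (30.0%) and that of Control sample 3 at 44 regions (33.8%), against 20.1% and 26.7% of the other regions in 5 lists. Among the 133 in 3 lists, the most frequent combination was Ezh2i samples 1 and 3 with Control sample 1, at 22 regions. Fragment totals did not go with these shares. Ezh2i sample 2 had 6363712 fragments and Control sample 3 had 6877909, the most of all.

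The median height at isolated regions with a peak was 14, 12 and 13 fragments in Ezh2i samples 1, 2 and 3, against 13, 12 and 12 fragments in Control samples 1, 2 and 3. At the other regions it was 19, 18 and 19 fragments in Ezh2i samples and 17, 18 and 17 fragments in Control samples. Between 48.1% and 58.8% of the peaks at isolated regions had the lowest background found in their list, to within 1%, against 19.6% to 20.9% of the peaks at the other regions. The height of such a peak was set against the floor of its library and not against a local level above it.

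To compare isolated with other regions in data that the rule had not used, regions and gaps were defined anew from 5 lists, with a peak in at least 3 of them, and read in the sample left out. This gave 679 to 750 isolated regions per sample. Isolated regions were found again less often and were lower. In the left-out sample a peak was present at 86.0%, 70.4% and 87.0% of isolated regions for Ezh2i samples 1, 2 and 3 and at 79.0%, 80.7% and 70.7% for Control samples 1, 2 and 3. The other regions had 88.4%, 82.7% and 89.8% for Ezh2i samples and 83.6%, 84.6% and 80.3% for Control samples. Isolated regions were lower in 6 of 6 samples, by a mean difference of -5.94 points (SD 4.06, n = 6, two-sided exact sign-flip permutation test, p = 0.031, adjusted over 3 comparisons 0.0469). This p-value is the smallest that 6 samples can give. The 6 values are not independent, because each list helps to define the regions read in the other samples. The test treats them as independent, and so do those of height and length below. The mean rests largely on Ezh2i sample 2 (-12.3 points) and Control sample 3 (-9.58 points). Over the remaining 4 samples it was -3.43 points, between -4.62 and -2.38 points (exact sign-flip permutation test, p = 0.125, the smallest that 4 samples can give).

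The median height in the left-out sample was 16, 13 and 15 fragments at isolated regions in Ezh2i samples and 14.5, 14 and 13 fragments in Control samples, against 21, 19 and 21 fragments at the other regions in Ezh2i samples and 19, 19 and 18 fragments in Control samples. Isolated regions were lower in 6 of 6 samples, with a log2 difference of -0.45 (SD 0.06, n = 6), which is a height of 0.730 times that of the other regions (exact sign-flip permutation test, p = 0.031, adjusted over 3 comparisons 0.0469). Without Ezh2i sample 2 and Control sample 3 the log2 difference was -0.43. The local background differed by a mean of -0.289 fragments (SD 0.0232). It is given with no test. Close neighbours that the rule counts enter it at other regions alone, and the taller peaks there add their own fragments. The floor of each list also limits how low it can fall. Peak length differed by -3.08 bases (SD 4.80) and was lower in 4 of 6 samples, which was not larger than the spread between samples (exact sign-flip permutation test, p = 0.25).

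Because isolated regions are lower, the other regions were also weighted to the heights of isolated regions in the 5 defining lists, a comparison chosen after seeing the data. At equal height the difference in presence turned to 1.74 points (-2.83 to 3.95 points over the samples, exact sign-flip permutation test, p = 0.1875). The height difference was -0.027 on the log2 scale (p = 0.5 in the same exact permutation test). Heights were matched in the 5 defining lists, so a height difference near 0 follows in part from the weighting. Its test therefore decides nothing about isolated regions. Isolated peaks were then longer by 10.6 bases, in 6 of 6 samples (exact sign-flip permutation test, p = 0.031, adjusted over 3 comparisons 0.0938). The difference in length did not pass after adjustment, but its unadjusted p-value is the smallest that 6 samples can give. Beside the larger p-values of presence and height, no lower adjusted value was possible, so the adjustment cannot decide on length. Background differed by -0.129 fragments and was lower at isolated regions in 6 of 6 samples, again with no test. Peaks are called against this background, so peak length can depend on it. The test of length therefore cannot decide on isolated regions apart from background.

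**Figure D2:**
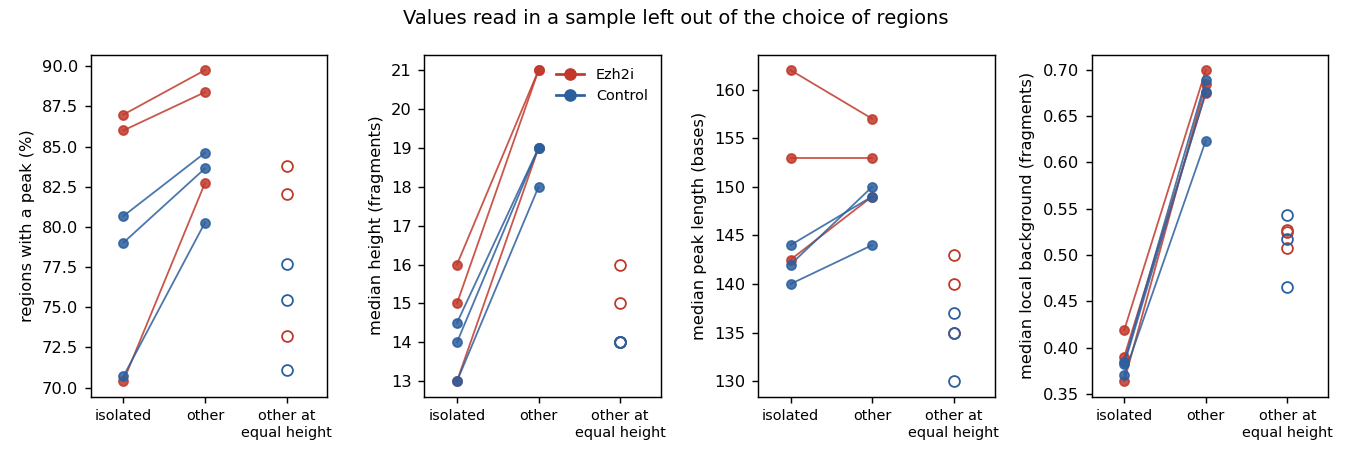
Values at isolated and other regions read in a sample that was left out of choosing them, and at other regions weighted to the heights of isolated regions (open circles). Panels show the share of regions with a peak in %, the median height in fragments, the median peak length in bases and the median local background in fragments, with 1 point per Ezh2i (red) or Control (blue) sample; share and height are lower at isolated than at other regions in 6 of 6 samples, and the open circles for share and height lie among the isolated values.

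Presence and height of isolated regions did not separate the exposures. The share with a peak averaged 82.2% ± 9.81 in Ezh2i samples and 78.3% ± 5.55 in Control samples (SD, n = 3 each), a difference of 3.99 points, given with no test since the rule used these peaks. Ezh2i samples 1 and 3 were above every Control sample and Ezh2i sample 2 was below every Control sample. Without Ezh2i sample 2 and Control sample 3, left out together after seeing the data, the difference was 6.46 points over the same isolated regions. Without Control sample 3 alone it was -0.196 points, but over 679 isolated regions defined anew from the other lists. These values are therefore not matched in regions. In the left-out samples, where the rule did not use the peaks, the share averaged 81.1% ± 9.31 in Ezh2i samples and 76.8% ± 5.35 in Control samples (SD, n = 3 each), a difference of 4.33 points (exact permutation test, two-sided, p = 0.6, with 0.1 the smallest p possible for groups of 3). Without Ezh2i sample 2 and Control sample 3 this difference was 6.65 points (exact permutation test, p = 0.333, the smallest that groups of 2 allow). A left-out Ezh2i sample was read at regions from fewer Ezh2i than Control lists, and a left-out Control sample the reverse. Every comparison of exposures in left-out samples is thus over unlike sets of regions.

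Over these 257 isolated regions, the mean log2 height per 1000000 fragments was 1.85, 1.5 and 1.87 in Ezh2i samples 1, 2 and 3, and 1.82, 1.65 and 1.31 in Control samples 1, 2 and 3. The groups overlapped, with means of 1.74 ± 0.21 in Ezh2i samples and 1.59 ± 0.26 in Control samples (SD, n = 3 each, difference 0.14, exact permutation test, p = 0.5). Leaving out Ezh2i sample 2 and Control sample 3 gave 0.13 over the same 257 regions. Leaving out Control sample 3 alone gave -0.0069, but over isolated regions defined anew from the other lists, with a peak in each of them. Relative to the other regions of the same sample, isolated regions were lower by a log2 difference of -0.29, -0.51 and -0.30 in Ezh2i samples and -0.29, -0.40 and -0.48 in Control samples. The group means of this relative height were -0.37 ± 0.13 in Ezh2i samples and -0.39 ± 0.09 in Control samples (SD, n = 3 each), and the difference of 0.022 was smaller than the spread in either group (exact permutation test, p = 0.9). In the left-out samples, the distance between isolated and other regions in presence likewise differed by 0.218 points between Ezh2i and Control samples (exact permutation test, p = 1), and by 1.70 points without Ezh2i sample 2 and Control sample 3 (exact permutation test, p = 0.333).

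**Figure D3:**
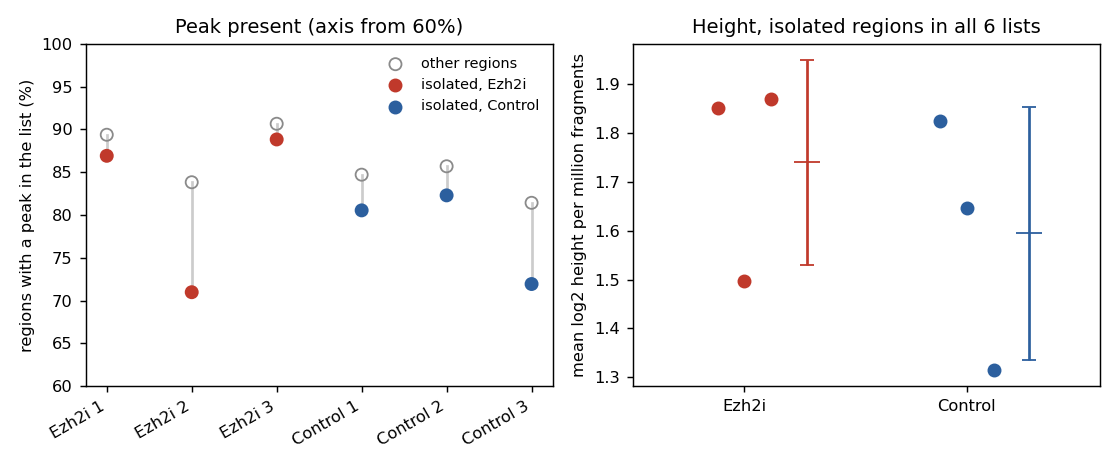
Left, share of regions with a peak in each list in % (axis from 60%), with filled points for isolated regions in Ezh2i (red) and Control (blue) samples and open circles for the other regions. Right, mean log2 height per 1000000 fragments over the 257 isolated regions in all 6 lists, with 1 point per sample and the mean ± SD beside them; Ezh2i sample 2 (1.5) and Control sample 3 (1.31) lie lowest.

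None of the 257 isolated regions with a peak in every list changed in height past the threshold. The rest of the 627 isolated regions lacked a peak in some list and were not in this fit. A peak lost or gained outright could therefore not be called. Quantile-normalized log2 heights of all 30071 regions of the series with a peak in every list were fitted with limma, and 0 of the 257 isolated regions passed a Benjamini-Hochberg adjusted p-value of 0.05, as did 0.0% of all regions tested. The smallest adjusted p-value at an isolated region was 0.746 in limma. At an unadjusted p-value under 0.05, 10 isolated regions (3.89%) were higher in Ezh2i samples, against 3.19% of all regions tested, and 12 (4.67%) were lower, against 3.05%. The 3 quantile-normalized Ezh2i heights lay above all 3 Control heights at 9 isolated regions (3.5%), against 5.69% of all regions, and below them at 19 (7.39%), against 5.39%. In simulated heights for the 30071 regions, limma recovered 75.5% of 200 regions changed 3-fold, 88.5% of those changed 4-fold and 0% of those changed 2-fold. A 2-fold change in height was thus not detected in that setting and could go uncalled in these data. The 200 regions were drawn from all 30071, so recovery at isolated regions alone was not simulated. Each region's simulated spread was estimated from its own few replicates, so recovery may differ in the real data.

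Requiring a peak in every list can limit how large a difference becomes. Among the 257 isolated regions fitted, differences were small in both directions. Their log2 difference had a median of 0.064, with quartiles of -0.18 and 0.21, against a median of -0.0012 and quartiles of -0.17 and 0.16 over all regions tested. Single libraries moved the median of isolated regions, which was -0.000025 without Ezh2i sample 1, 0.13 without Ezh2i sample 2, 0.011 without Ezh2i sample 3, 0.096 without Control sample 1, 0.023 without Control sample 2 and 0.0043 without Control sample 3. A positive difference was found at 144 isolated regions (56.0%), against 49.8% of all regions. The differences at isolated regions ran between -0.74 and 0.92, and none reached an absolute value of 1. The median standard error was 0.225 at isolated regions and 0.214 over all. With heights per 1000000 fragments in place of quantile normalization, the median over all regions moved to 0.12 and that of isolated regions to 0.18. A positive difference was then found at 180 isolated regions (70.0%), against 69.1% of all regions. On that scale 18 of the 257 isolated regions were higher and 3 lower in Ezh2i samples at an unadjusted p-value under 0.05 in limma. Of all regions, 5.84% were higher and 0.825% lower, so all regions shared the tilt toward higher values on that scale.

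**Figure D4:**
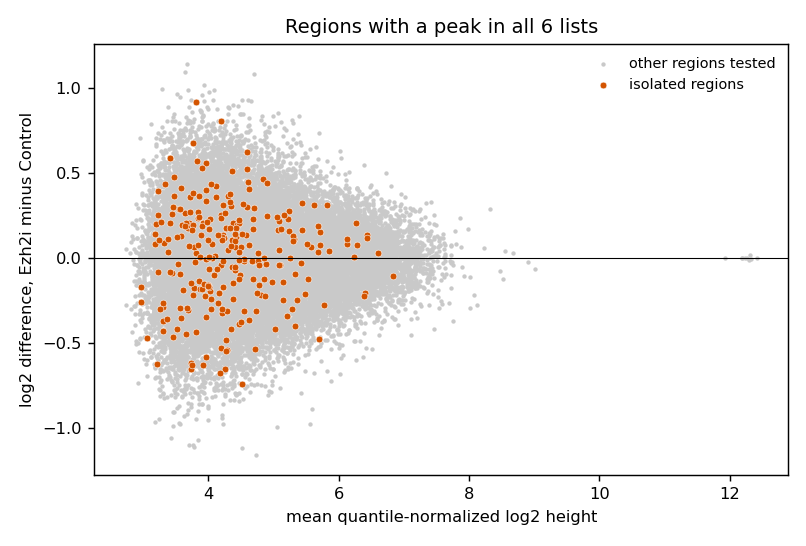
Log2 difference in height, Ezh2i minus Control, against mean quantile-normalized log2 height, for the 257 isolated regions (orange) among the 30071 regions found in every list (grey). Isolated regions lie between -0.74 and 0.92 on both sides of 0, and mostly at the low end of the height axis.

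The tallest isolated regions were open in every sample of both exposures. The tallest, chr10:5821582-5821879, had heights of 107, 116 and 115 fragments in Ezh2i samples 1, 2 and 3, against 137, 112 and 102 fragments in Control samples 1, 2 and 3. The groups overlapped, with a log2 difference of -0.11 (SE 0.19), and the 6 summits lay within 4 bases. Its neighbours were 119134 and 82325 bases away. At chr20:31905919-31906205 the heights were 103, 87 and 114 fragments in Ezh2i samples and 105, 108 and 73 fragments in Control samples. At chr20:38201568-38201828 they were 100, 69 and 117 fragments in Ezh2i samples and 93, 82 and 68 fragments in Control samples. Neither region separated the exposures, with log2 differences of 0.03 (SE 0.19) and 0.13 (SE 0.21). On chromosome 22, chr22:22719375-22719624 had 91, 81 and 107 fragments in Ezh2i samples and 78, 90 and 75 fragments in Control samples (log2 difference 0.12, SE 0.18). On chromosome 2, chr2:18988189-18988425 had 79, 75 and 91 fragments in Ezh2i samples and 85, 96 and 85 fragments in Control samples (log2 difference -0.21, SE 0.18). Both pairs of groups overlapped as deposited, but at the region on chromosome 2 the quantile-normalized Ezh2i heights were all below the Control heights. None of the 5 tallest regions had an adjusted p-value under 0.890 in limma.

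The largest positive difference lay at chr3:10019260-10019769, with 25, 14 and 24 fragments in Ezh2i samples and 11, 9 and 10 fragments in Control samples. All Ezh2i heights were above the Control heights, with a log2 difference of 0.92 (SE 0.22). In limma its unadjusted p-value was 0.0017 and its Benjamini-Hochberg adjusted p-value 0.746. Its summits spread over 370 bases and its peaks were 151 to 510 bases long, so the lists did not agree on a single summit. At chr12:16762292-16762521 the heights were 35, 28 and 32 fragments in Ezh2i samples and 15, 20 and 21 fragments in Control samples (log2 difference 0.62, SE 0.20). This region had no weak region within 75000 bases, and its groups did not overlap. The region chr7:12493632-12493908 had 28, 30 and 20 fragments in Ezh2i samples and 22, 15 and 7 fragments in Control samples (log2 difference 0.81, SE 0.35). The region chr1:46117242-46117464 had 25, 11 and 21 fragments in Ezh2i samples and 8, 9 and 15 fragments in Control samples (log2 difference 0.68, SE 0.32). In both of these the groups overlapped as deposited.

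Among regions with a negative difference, chr21:36698952-36699151 had 21, 15 and 21 fragments in Ezh2i samples and 29, 34 and 23 fragments in Control samples. All Ezh2i heights lay below the Control heights (log2 difference -0.74, SE 0.20). In limma the unadjusted p-value was 0.0031 and the Benjamini-Hochberg adjusted p-value 0.746. At chr22:14575718-14575888 the heights were 14, 13 and 19 fragments in Ezh2i samples and 28, 18 and 21 fragments in Control samples (log2 difference -0.67, SE 0.22). At chr1:38537876-38538022 they were 11, 9 and 14 fragments in Ezh2i samples and 16, 15 and 17 fragments in Control samples (log2 difference -0.65, SE 0.20). The groups overlapped as deposited in the first of these and not in the second. At chr19:29550868-29551011 they were 18, 15 and 15 fragments in Ezh2i samples and 20, 27 and 22 fragments in Control samples, again without overlap (log2 difference -0.65, SE 0.19). These 8 regions with the largest differences were picked for them, kept their sign in 14 of 14 alternatives each, and none passed the adjusted threshold in any. The alternatives reuse the peaks by which the regions were picked, so a kept sign adds no support.

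**Figure D5:**
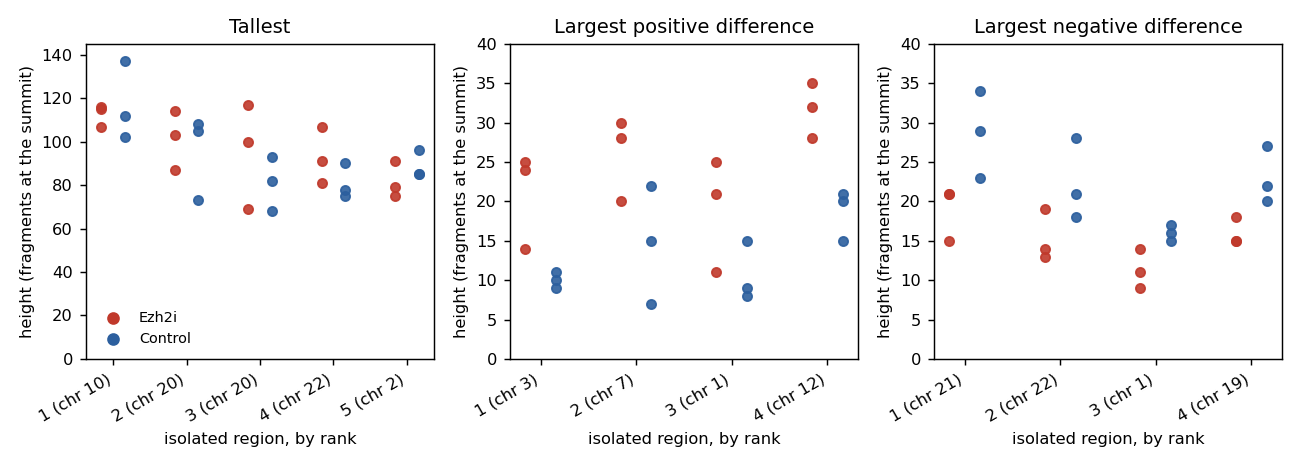
Heights in fragments covering the summit in each Ezh2i (red) and Control (blue) sample, for the 5 tallest isolated regions and for the 4 with the largest positive and the 4 with the largest negative log2 difference, each ordered by rank. The groups overlap at the tallest regions, and the regions picked for their difference have heights of 7 to 35 fragments.

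The 3 most remote isolated regions had mean heights of 15, 13 and 10.7 fragments, against a median of 11.6 fragments over all isolated regions. The region chr12:38096211-38096318 lay 282438 and 274295 bases from its neighbours and had heights of 17, 15 and 17 fragments in Ezh2i samples, against 17, 11 and 13 fragments in Control samples. The region chr14:9982243-9982450 lay 268261 and 389120 bases from its neighbours, with 15, 16 and 13 fragments in Ezh2i samples and 12, 17 and 5 fragments in Control samples. The region chr1:35144194-35144379 lay 423537 and 240422 bases away from its neighbours, with 8, 16 and 6 fragments in Ezh2i samples and 14, 11 and 9 fragments in Control samples. All 3 were called in every list, and the groups overlapped at each.

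Few isolated regions had peaks in all samples of 1 exposure and none of the other. There were 9 with a peak in all 3 Ezh2i lists and no Control list (1.44% of 627, against 1.32% of all 50533 regions), and 5 with a peak in all 3 Control lists and no Ezh2i list (0.797%, against 0.558%). The 9 had mean heights of 7 to 14.3 fragments and the 5 had 5 to 18.7 fragments. The tallest of the 9, chr22:33488096-33488212, had 15, 9 and 19 fragments in Ezh2i samples. It was followed by chr19:38022036-38022177 with 13, 12 and 10 fragments and chr5:65409165-65409382 with 11, 10 and 14 fragments in Ezh2i samples. Of the 5, chr6:20743477-20743569 had 20, 15 and 21 fragments in Control samples, chr15:38473339-38473452 had 9, 12 and 10 fragments and chr5:34256581-34256741 had 7, 8 and 7 fragments. A list without a peak holds no height for the region, so coverage under the calling threshold was not measured there.

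When missing peaks were set to the lowest height of their list, 1 of the 627 isolated regions (0.159%) passed the threshold, against 0.232% of the 52189 regions then tested. It was chr6:20743477-20743569, with a log2 difference of -1.97. This region entered only through its Control peaks and its 3 Ezh2i heights were all put in, so the value describes that choice and no test of it is given.

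Regions next to the limit of 75000 bases were mostly low on both sides of it. The isolated regions just inside it had nearer gaps of 75023, 75159 and 75178 bases, a peak in 4, 5 and 3 lists and mean heights of 10, 12.6 and 9.33 fragments. Just outside it, chr15:13295448-13295720 and chr15:13370683-13370806 faced each other across 74962 bases with mean heights of 34.7 and 10.8 fragments, and chr17:48462504-48462658 had a nearer gap of 74893 bases and a mean height of 12.3 fragments.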

How the data were processed

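ATAC-seq of 3 Ezh2i and 3 Control samples was analysed from peak lists. Per the study's methods and the submitters' processing notes, the authors ran snakePipes for ATAC-seq, with Trim Galore for trimming and Bowtie2 for alignment to GRCz11, and raised the fragment length to 300 bp. Peaks were called by the authors with MACS2 (version 2.1.1.20160309) per sample, on paired fragments with no input, at a q-value cutoff of 0.001, with at most 1 duplicate, an effective genome size of 1368780147 bases and a background window of 10000 bases. The signal deposited by the authors is the pileup, the coverage of the summit base in fragments. Fold enrichment, also deposited, is the ratio of pileup to background after adding 1 to each, from which the background was computed here. Values of −log10 p-value and −log10 q-value were deposited from the same caller, and q-values served only for an alternative. The deposited values are not read counts, so the authors' edgeR test on raw counts was replaced by limma. From their test the paper reports differential peaks at gene start sites, most of them more open in exposed embryos. Summit height is another measure, taken here over another set of regions. The limma outcome therefore cannot be set against that report directly.

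Peaks sharing at least 1 base were merged. The members, lists and tests were chosen with earlier results of these data known. For regions found in all 6 lists, log2 heights were quantile-normalized and fitted with limma 3.58.1 (lmFit, eBayes) in R 4.3.3, without a block, with Benjamini-Hochberg adjustment at 0.05 over all 30071 regions. Single values per sample were compared by two-sided exact permutation tests. Scripts used matplotlib 3.10.9, scipy 1.17.1, numpy 2.4.6 and pandas 2.3.3 in Python 3.11.15, and the fit was tested on simulated heights. Depth was 5894731 to 6877909 fragments per library. P-values measure the spread between these samples, and whether they came from separate clutches is not given in the sources used here.

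The regions named are the 5 tallest isolated regions, the 4 with the largest positive and the 4 with the largest negative log2 difference among those in all 6 lists with a mean height of at least 10, the 3 with the longest nearer gap, up to 3 per exposure with peaks in that exposure alone, and 3 on each side of the gap limit. The longest run, the longest gap and the region past the threshold with missing peaks filled were named after their values were seen. Alternatives were other gap limits, list minimums and merging distances, stricter q-values, equal list lengths, other scalings, fold enrichment, limma with a trend, missing peaks filled, a replicate block and leaving out each sample.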

Additional observations from a re-analysis of the deposited data

How the results depend on the processing

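The number of isolated regions depended on the rule, with 1672 at a gap limit of 50000 bases, 252 at 100000 bases, 395 when a peak in 2 lists sufficed and 1296 when all 6 lists were required. With lists of equal length the difference in presence between Ezh2i and Control samples was -0.813 points. For each sample left out, isolated regions were defined anew from the other lists. Leaving out 1 sample gave -0.196 points (without Control sample 3) to 8.0 points (without Ezh2i sample 2). The difference in scaled height lay between -0.0069 (without Control sample 3) and 0.26, and that in relative height between -0.034 and 0.093, negative without Control sample 3, Ezh2i sample 1 or Ezh2i sample 3. Without both Ezh2i sample 2 and Control sample 3 the 3 differences were 6.46 points, 0.13 and 0.052. These were taken over the regions defined from all 6 lists, so they are not matched in regions to the values without 1 sample. Requiring all 6 lists gives no share, since every region then has a peak in each.

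Against the other regions, leaving out 1 sample kept every direction but left 5 samples, which cannot give a p under 0.0625. Presence then lay between -6.65 and -4.66 points, height between -0.47 and -0.44, background between -0.297 and -0.283 fragments and length between -4.70 and -2.10 bases. Without both Ezh2i sample 2 and Control sample 3, also chosen after seeing the data, presence differed by -3.43 points, height by -0.43, background by -0.278 fragments and length by -2 bases. Weighting to equal height, chosen after seeing the data, gave 1.74 points for presence, -0.027 for log2 height and 10.6 bases for length. The median log2 difference of isolated regions was 0.18 per 1000000 fragments and lay between -0.000025 and 0.13 when 1 sample was left out, and with missing peaks filled 1 isolated region passed the threshold.

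Of the named regions, chr20:31905919-31906205 turned to -0.049 with fold enrichment, -0.021 without Ezh2i sample 3 and -0.092 without Control sample 3, against 0.096 without Control sample 1. The region chr12:38096211-38096318 lay between -0.047 (without Control sample 2) and 0.31 (without Control sample 1), and chr14:9982243-9982450 between -0.079 (without Control sample 3) and 0.79 (without Control sample 2). The cause of these changes was not tested. In the remaining settings 103 summary values and 216 values of named regions were counted as unchanged. They stayed on their side of the threshold or, for the median log2 difference, which has no test, within the spread between replicates. For presence, scaled height and relative height between exposures, the exact permutation test cannot give a p under 0.1. Those values counted as unchanged unless their sign turned, so their count does not show stability. The number of isolated regions was instead judged by a fixed ratio to 627, and counts of 626 to 750 fell within it. The sign was not kept in all of these, since the difference in presence was 0 and the median log2 difference just below 0 without Ezh2i sample 1.

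Deviations of same-numbered Ezh2i and Control samples from their group means had correlations of 0.098, -0.029 and -0.12. The highest correlation, 0.19, joined Ezh2i sample 2 and Control sample 3, the libraries with the fewest peaks. With 3 samples per group such values cannot show whether same-numbered samples share a clutch or day, and the labels do not say. With a replicate block the differences in presence, scaled height and relative height were 3.99 points, 0.14 and 0.022, with an exact permutation p of 0.75 for each of both heights. With the replicate block in limma, 0 of the 257 isolated regions fitted passed and the median log2 difference was 0.064. Heights near 5 fragments, the lowest of any peak at an isolated region, limit what a missing peak can show.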
